A study of Mus musculus with 4 samples.

Results

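The 9 neural adhesion genes Ncam1, L1cam, Nfasc, Nrcam, Cntn2, Opcml, Ntm, Nrxn3 and Nlgn1 were taken by symbol from single cell libraries of the embryonic mouse brain, as genes known for alternative exons. They were 9 of 27998 gene rows in the short read (Illumina) tables and 9 of 12561 gene names in the long read (Nanopore) isoform tables, where 39 of their annotated isoforms were detected out of 31947 detected isoforms of all genes. The rule used names only and no measured value, and all 9 genes passed the filter on low counts. The cells came from an E18 (embryonic day 18) C57BL/6 mouse, whose cortex, hippocampus and sub ventricular zone were pooled, and the labels name no treatment or genetic change. A single 10x Genomics Chromium emulsion (v2 chemistry) was divided into a smaller and a larger aliquot, named here by the 190 and 951 cells that they hold, and the cDNA of each was read on both platforms, which gave 4 libraries. The aliquots are therefore technical replicates of 1 animal and 1 emulsion, and every p value below measures the spread between these 2 aliquots and not between animals.

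After cells with fewer than 1400 detected genes were removed, 186 of 190 and 935 of 951 cells remained. They held 1809081 and 8295650 Illumina unique molecular identifiers (UMIs, 1 per captured RNA molecule) and 993220 and 4889148 Nanopore UMIs that had been assigned to an annotated isoform. The median cell held 8048.5 and 7551 Illumina UMIs and 4394 and 4487 Nanopore isoform UMIs. Among the kept cells 12 barcodes occurred in both aliquots. Cells were clustered without these 9 genes and their relatives, and 8 of the 10 clusters took a class name ("-like") from marker genes, of which 6 of 8 to 10 of 10 per class were raised. Cluster 6 (with Hs6st2 and Jakmip1 among its leading genes) and cluster 7 (led by Crym, Nrp2, Slit3 and Cck) stayed unnamed. The name cycling radial glia-like rests on genes of cell division, such as Top2a and Mki67, and on no radial glia marker. The immature GABAergic-like class was led by Ebf1, Isl1, Zfhx3 and Foxp2, and the mature one by Maf, Nxph1, Npy and Sst. The immature glutamatergic-like class was led by Tfap2d, Pdzrn3, 2600014E21Rik and Wnt7b, and the mature one by Nefl, Sla, Lrfn5 and Dync1i1. Tbr1, a marker of the mature glutamatergic list, was also among the leading genes of the immature glutamatergic-like class. Maturity and neuron type can therefore not be told apart between immature and mature classes, in GABAergic-like or glutamatergic-like cells. The 951-cell aliquot also held 11 cells with markers of microglia, pericytes or the oligodendrocyte lineage, which were set aside. No cell reached the needed 3 markers for endothelium, but 1 of its 4 markers had 0 UMIs, so endothelial cells may have been missed. Free RNA was present, since haemoglobin genes, which none of these cells should express, summed to between 476 and 698 CPM (UMIs per 1000000 UMIs of the class) in every class.

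Adhesion molecules of the immunoglobulin superfamily hold neurites, axons and synapses together and guide their growth. NCAM, the L1 family (L1, neurofascin, NrCAM), the contactins and the IgLON proteins act along axons and dendrites, whereas neurexins on the presynaptic side bind neuroligins on the postsynaptic side. Most of these genes carry small cassette exons whose inclusion changes a linker, a binding surface or the cytoplasmic tail of the protein, and some of these exons are known to be used by neurons and not by other cells.

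The exons that the isoform results turn on are shown with the 15 transcript bases on either side, 5′ to 3′ on the strand of the gene, with the exon in capitals (Gencode vM21 transcripts, GRCm38). In Ncam1 they were the 30-nt VASE exon in the fourth immunoglobulin domain (chr9:49550540-49550569, minus strand), the 15-nt exon between the fibronectin type III domains (chr9:49541888-49541902) and the first 60 bases of the 801-nt exon of the long cytoplasmic tail of NCAM-180 (chr9:49507594-49507653 within chr9:49506853-49507653).
Ncam1 30-nt exon: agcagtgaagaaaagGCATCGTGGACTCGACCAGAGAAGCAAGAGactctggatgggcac
Ncam1 15-nt exon: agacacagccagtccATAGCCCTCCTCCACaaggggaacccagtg
Ncam1 801-nt exon, first 60 bases: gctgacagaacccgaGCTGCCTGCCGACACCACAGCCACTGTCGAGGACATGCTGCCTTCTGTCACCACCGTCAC
In L1cam the neuronal 12-nt exon of the cytoplasmic tail (chrX:73855652-73855663, minus strand) is shown with its exon-skipping junction, followed by the 15-nt exon near the protein's start (chrX:73867022-73867036).
L1cam 12-nt exon: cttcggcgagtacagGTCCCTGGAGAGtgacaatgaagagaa
L1cam 12-nt exon skipped: cttcggcgagtacagtgacaatgaagagaa
L1cam 15-nt exon: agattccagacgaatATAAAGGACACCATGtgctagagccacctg
In Nrcam they were the 30-nt exon (chr12:44566840-44566869, plus strand) and the 36-nt exon (chr12:44578145-44578180), and in Nfasc the 237-nt exon of the mucin-like stretch of neuronal neurofascin (chr1:132588074-132588310, minus strand).
Nrcam 30-nt exon: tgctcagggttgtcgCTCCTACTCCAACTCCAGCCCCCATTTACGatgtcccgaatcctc
Nrcam 36-nt exon: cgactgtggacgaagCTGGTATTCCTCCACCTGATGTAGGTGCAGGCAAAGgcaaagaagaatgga
Nfasc 237-nt exon: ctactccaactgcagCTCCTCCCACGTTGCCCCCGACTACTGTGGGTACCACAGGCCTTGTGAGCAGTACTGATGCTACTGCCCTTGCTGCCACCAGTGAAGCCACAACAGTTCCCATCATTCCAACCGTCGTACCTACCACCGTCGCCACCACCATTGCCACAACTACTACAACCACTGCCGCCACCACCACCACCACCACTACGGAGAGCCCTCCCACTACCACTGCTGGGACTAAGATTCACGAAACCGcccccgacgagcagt
The last pair is shown because the long reads assigned to an isoform barely reached it: the 90-nt exon of splice site 4 in Nrxn3, which sets the choice of postsynaptic partner (chr12:90199147-90199236, plus strand), and the 60-nt exon of splice site A in Nlgn1 (chr3:25920178-25920237, minus strand).
Nrxn3 90-nt exon: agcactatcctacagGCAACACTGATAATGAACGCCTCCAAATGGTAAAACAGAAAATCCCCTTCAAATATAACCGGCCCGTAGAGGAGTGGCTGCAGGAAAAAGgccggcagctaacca
Nlgn1 60-nt exon: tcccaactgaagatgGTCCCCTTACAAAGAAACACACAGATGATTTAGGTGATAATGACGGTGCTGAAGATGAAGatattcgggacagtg
All of these exons have lengths that are multiples of 3 and so keep the reading frame.

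The genes differ widely in size. In GRCm38, Nrxn3 (ENSMUSG00000066392, chr12:88722876-90334935, plus strand) spans 1612 kb, Opcml (ENSMUSG00000062257, chr9:27790775-28925410, plus strand) 1135 kb, Ntm (ENSMUSG00000059974, chr9:28994750-29963141, minus strand) 968 kb and Nlgn1 (ENSMUSG00000063887, chr3:25426215-26332460, minus strand) 906 kb. The other 5 genes are shorter: Ncam1 (ENSMUSG00000039542, chr9:49502136-49798925, minus strand) spans 297 kb, Nrcam (ENSMUSG00000020598, chr12:44328885-44601964, plus strand) 273 kb, Nfasc (ENSMUSG00000026442, chr1:132564690-132741797, minus strand) 177 kb, L1cam (ENSMUSG00000031391, chrX:73853778-73896105, minus strand) 42.3 kb and Cntn2 (ENSMUSG00000053024, chr1:132509427-132543256, minus strand) 33.8 kb. Opcml and Ntm, both IgLON genes, are neighbours with their ends 69.3 kb apart on opposite strands, and Cntn2 and Nfasc lie 21.4 kb apart on the same strand.

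The first question was how the genes differ between progenitors and neurons and between neuron types. Illumina UMIs were summed per aliquot and class and tested with edgeR's quasi-likelihood test across 8415 genes, with Benjamini-Hochberg adjusted p values. In the neuron-like classes (immature and mature glutamatergic-like and GABAergic-like) 6 of the 9 genes rose against the progenitor-like classes (radial glia-like cells, cycling or not, and intermediate progenitor-like cells) and 0 fell, where 18.6% of all genes tested rose and 19.6% fell. Their median log2 fold change was 1.28, against -0.0035 over all genes. In mature against immature glutamatergic-like cells 4 of 9 rose and 0 fell, where 2.92% of all genes rose and 2.61% fell. In mature against immature GABAergic-like cells 0 of 9 were called by edgeR or by DESeq2, with 1 at an unadjusted p under 0.05 and 2.47% of all genes called in either direction. In mature GABAergic-like against mature glutamatergic-like cells 1 rose, where 3.46% of all genes rose, and 5 fell, where 5.04% of all genes fell.

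**Figure D1:**
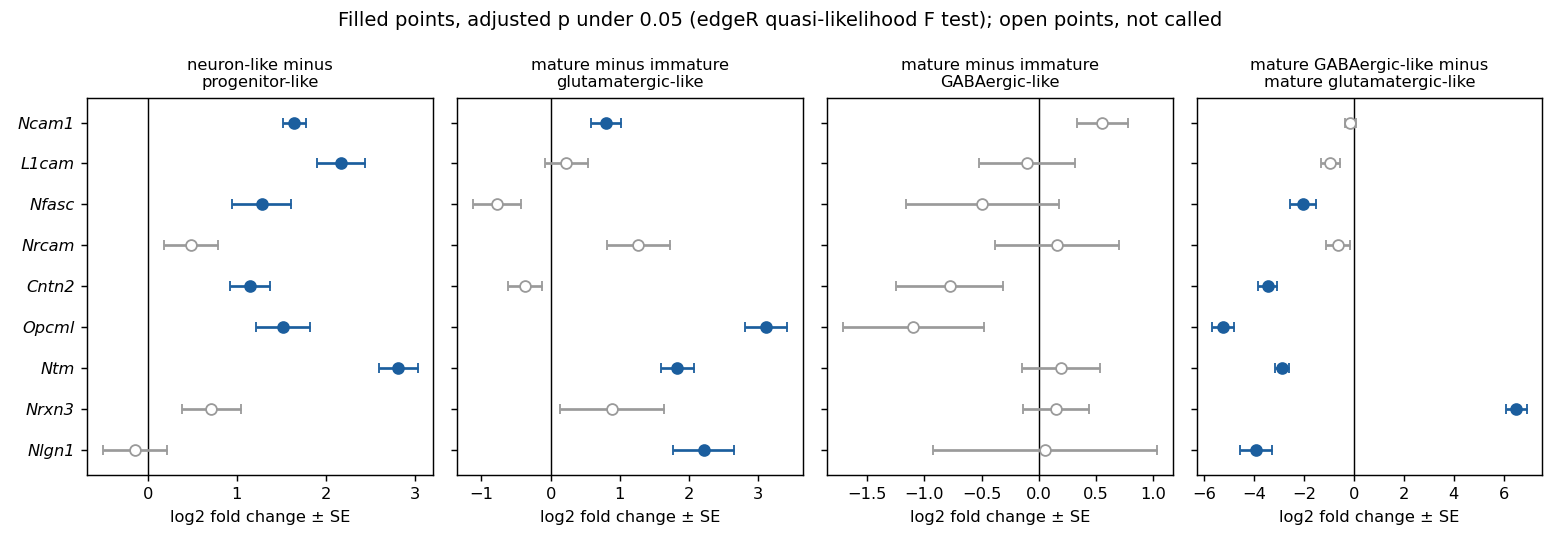
Log2 fold change ± SE of each gene (y axis) in 4 contrasts of the Illumina class sums, with filled points for adjusted p under 0.05. Opcml, Ntm and Nlgn1 lie to the right in mature against immature glutamatergic-like cells and to the left in GABAergic-like against glutamatergic-like cells, where Nrxn3 alone lies to the right at 6.50.

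Ncam1, the broadest of the set, was found in every class. In the 190-cell and the 951-cell aliquot it stood at 752 and 567 CPM in mature glutamatergic-like cells, at 643 and 645 CPM in mature GABAergic-like cells and at 723 and 499 CPM in cluster 6. The immature neurons were lower, with 470 and 344 CPM in glutamatergic-like and 515 and 318 CPM in GABAergic-like cells. The progenitor-like classes lay between 125 and 242 CPM, below every neuron-like value in the same aliquot. Ncam1 was 3.12-fold higher in neuron-like classes (log2 1.64 ± 0.13 SE, adjusted p = 6.16e-15). It also rose from immature to mature glutamatergic-like cells (log2 0.80 ± 0.22, adjusted p = 0.0152), a call that was lost when either aliquot was left out of these classes (adjusted p = 0.283 and 0.385) or DESeq2 was used (0.122). In GABAergic-like cells the value was log2 0.55 ± 0.22 (adjusted p = 0.269) and passed the test only with the aliquot as a replicate block (log2 0.71, adjusted p = 3.96e-05). The mature GABAergic-like and glutamatergic-like classes were not told apart (log2 -0.16 ± 0.22, adjusted p = 0.950).

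L1cam, which promotes axon growth and bundling, was lowest in the radial glia-like and cycling radial glia-like classes. Radial glia-like cells held 22.2 and 1.21 CPM (4 and 1 UMIs) and cycling radial glia-like cells 25.8 and 10.4 CPM. Intermediate progenitor-like cells held 42.1 and 31.4 CPM, which overlapped the immature GABAergic-like class. Mature glutamatergic-like cells held 87.2 and 87.1 CPM, immature ones 93.9 and 72.5 CPM, and cluster 7, with 150.2 and 80.2 CPM, overlapped them. L1cam was 4.49-fold higher in neuron-like classes (log2 2.17 ± 0.27, adjusted p = 9.80e-09). GABAergic-like cells lay between, at 72.6 and 42.7 CPM in the mature and 35.1 and 53.1 CPM in the immature class, and their difference from glutamatergic-like cells passed the test only with the aliquot as a block (log2 -0.97, adjusted p = 0.00981, against -0.95 ± 0.37 and 0.120 without it).

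Nfasc, the neurofascin gene, whose product gathers channels at the axon initial segment, was highest in the few Cajal-Retzius-like cells (4 and 13 cells), at 118 and 175 CPM. Immature glutamatergic-like cells followed with 93.9 and 79.9 CPM, above the mature class with 39.0 and 50.6 CPM in both aliquots. This difference was called only with the aliquot as a block (log2 -0.70, adjusted p = 0.0359, against -0.77 ± 0.35 and 0.243 without it). Radial glia-like cells held 0 and 7.25 CPM (0 and 6 UMIs). Nfasc was 2.43-fold higher in neuron-like classes (log2 1.28 ± 0.33, adjusted p = 0.00145) and 4.12-fold lower in mature GABAergic-like than in mature glutamatergic-like cells (log2 -2.04 ± 0.54, adjusted p = 0.00798). The first call was lost when all genes were used for clustering (adjusted p = 0.0747), which also left the neuron-like group without an immature glutamatergic-like class, and the second when the 951-cell aliquot was left out (log2 -1.14, adjusted p = 0.742) and with DESeq2 (0.259).

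Nrcam stood at low levels throughout, between 0 and 39.9 CPM, and the aliquots of neighbouring classes overlapped along nearly the whole order of levels. Mature glutamatergic-like cells were highest with 39.0 and 37.1 CPM, next to radial glia-like cells with 22.2 and 39.9 CPM. The neuron-like classes were not told apart from the progenitor-like ones (log2 0.48 ± 0.30, adjusted p = 0.219). Mature against immature glutamatergic-like cells gave a log2 difference of 1.27 ± 0.46 (adjusted p = 0.101, and 0.0150 with the aliquot as a block).

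Cntn2, the axonal contactin TAG-1 of outgrowing projection fibres, was highest in the unnamed clusters and in glutamatergic-like cells. Cluster 6 held 506 and 474 CPM, cluster 7 held 357 and 326 CPM, immature glutamatergic-like cells 272 and 280 CPM and mature ones 135 and 252 CPM. The aliquots of these 4 groups did not overlap between neighbours in the order. Intermediate progenitor-like cells already held 98.2 and 105 CPM, against 5.55 and 10.9 CPM in radial glia-like cells. Both GABAergic-like classes were low, between 17.1 and 35.8 CPM, and mature GABAergic-like cells held 10.98-fold less than mature glutamatergic-like cells (log2 -3.46 ± 0.38, adjusted p = 3.42e-09). The rise in neuron-like classes (log2 1.15 ± 0.22, adjusted p = 5.04e-05) was lost without the 951-cell aliquot of these classes (adjusted p = 0.0553) and when all genes were used for clustering, with no immature glutamatergic-like class in the group (log2 0.57, adjusted p = 0.0569).

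Opcml and Ntm, IgLON proteins that are anchored to the membrane by lipid and pair with each other on neuronal surfaces, were high in mature glutamatergic-like cells. Opcml was also high in both unnamed clusters and Ntm in cluster 6. Opcml held 14.1 and 55.7 CPM in immature and 337 and 386 CPM in mature glutamatergic-like cells. Cluster 7 held 413 and 572 CPM and cluster 6 held 190 and 195 CPM. Opcml was 8.67-fold higher in the mature than in the immature glutamatergic-like class (log2 3.12 ± 0.30, adjusted p = 4.38e-09). In GABAergic-like cells it stayed between 0 and 23.4 CPM in both classes, and the mature GABAergic-like class with 0 and 7 UMIs was 37.9-fold lower than its glutamatergic-like counterpart (log2 -5.25 ± 0.43, adjusted p = 2.12e-11). The rise over progenitors (log2 1.52 ± 0.30, adjusted p = 0.000110) is a mean over 4 unlike classes. Without the neuron-like sums of the 951-cell aliquot the value was -0.14, with 0 UMIs left in mature GABAergic-like cells. In the 190-cell aliquot mature glutamatergic-like cells still held 337 CPM, against 14.0 to 27.7 CPM in the progenitor-like classes.

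Ntm, the neurotrimin gene, held 127 and 127 CPM in immature and 445 and 410 CPM in mature glutamatergic-like cells, 380 and 289 CPM in cluster 6, and 236 and 223 CPM in Cajal-Retzius-like cells. Unlike Opcml it was lower in cluster 7, with 65.7 and 109 CPM. Ntm showed the largest rise of the 9 genes in neuron-like classes, 7.02-fold (log2 2.81 ± 0.22, adjusted p = 1.69e-15). It was 3.55-fold higher in the mature than in the immature glutamatergic-like class (log2 1.83 ± 0.24, adjusted p = 2.00e-07). GABAergic-like cells held between 41.5 and 68.3 CPM in both classes, and the mature ones held 7.33-fold less than mature glutamatergic-like cells (log2 -2.87 ± 0.28, adjusted p = 2.34e-11). The difference between mature and immature classes was itself larger in glutamatergic-like than in GABAergic-like cells for both IgLON genes, where 1.5% of all genes tested were called in this direction: by log2 4.21 ± 0.67 for Opcml (adjusted p = 0.000109) and by 1.63 ± 0.42 for Ntm (adjusted p = 0.0163). Because the immature and mature classes of both neuron types also differ in their leading genes, maturity and neuron type cannot be told apart in this comparison. The call for Ntm was lost with DESeq2 (adjusted p = 0.287) and without either aliquot (0.419 and 0.236), and the value for Opcml was 10.9 without the 951-cell aliquot.

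Nrxn3, a presynaptic neurexin, was the gene of GABAergic-like cells. It held 757 and 787 CPM in the mature and 784 and 531 CPM in the immature GABAergic-like class, whereas mature glutamatergic-like cells held 4.59 and 8.43 CPM and immature ones 0 and 5.26 CPM. These low values lie far under the haemoglobin level in the same classes, and whether free RNA gave them was not tested. Mature GABAergic-like cells thus held 90.6-fold more Nrxn3 than mature glutamatergic-like cells (log2 6.50 ± 0.41, adjusted p = 7.74e-11), and the GABAergic-like classes were not told apart from each other (log2 0.15 ± 0.29, adjusted p = 0.960). Averaged over neuron-like classes the difference from progenitors was not called (log2 0.71 ± 0.33, adjusted p = 0.0930, and 0.0482 with the aliquot as a block).

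The class named cycling radial glia-like came next, with 274 and 195 CPM of Nrxn3, against 5.55 and 24.2 CPM in the radial glia-like class. These classes differed in more than cell cycle genes, since Gad2 stood at 151 and 156 CPM in the first and at 5.55 and 8.46 CPM in the second. In the cycling class 20 of 24 and 60 of 90 cells held a UMI of Dlx1 or Dlx2, transcription factors of the ventral, GABAergic lineage (83.3% and 66.7%, median depths of 12193 and 9349.5 UMIs). In mature glutamatergic-like cells, at median depths of 11996 and 10548 UMIs, 8 of 36 and 9 of 168 cells did (22.2% and 5.36%). Of radial glia-like cells, at median depths of 10637 and 10717 UMIs, 2 of 13 and 6 of 53 did (15.4% and 11.3%). As some cells of each class held such a UMI, a single UMI was not read as the mark of a lineage. The source of these UMIs was not tested. In the cycling class the cells with such a UMI carried 84 of the 85 and 181 of the 188 Nrxn3 UMIs. Their summed level was 354 and 322 CPM, against 13.6 and 17.5 CPM in the other cycling cells, although these had more UMIs per cell (medians of 15232.5 and 13165.5, against 12193 and 8866.5). The summed level of all 10 immature GABAergic markers in the cycling class was 1874 and 1908 CPM, of which Meis2 alone gave 621 and 966 CPM. The same sum was 1615 and 1579 CPM in immature glutamatergic-like, 1441 and 1176 CPM in mature GABAergic-like and 616 and 730 CPM in radial glia-like cells. Meis2 alone gave 1559 and 1500 CPM of it in immature glutamatergic-like and 571 and 638 CPM in radial glia-like cells. In mature GABAergic-like cells Meis2 gave 10.4 and 18.8 CPM. A sum that includes Meis2 therefore cannot set the class apart. The part of these cells in the level of the class was not tested further.

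Nlgn1, a postsynaptic neuroligin of excitatory synapses, was sparse. Mature glutamatergic-like cells held 68.8 and 61.8 CPM and cluster 7 held 46.9 and 48.3 CPM, followed by radial glia-like cells with 27.7 and 24.2 CPM. These 3 groups did not overlap, and the remaining classes lay at 18.4 CPM or below. Nlgn1 rose 4.64-fold from immature to mature glutamatergic-like cells (log2 2.21 ± 0.44, adjusted p = 0.000475), a call that was lost without the 951-cell aliquot (log2 2.35, adjusted p = 0.230) and with DESeq2 (0.0994). Mature GABAergic-like cells held 3 UMIs in all, against 140 in mature glutamatergic-like cells, a 14.4-fold ratio of levels with an exact 95% counting interval from 4.82 to 70.6 (fitted log2 -3.93 ± 0.63, adjusted p = 5.27e-06).

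**Figure D2:**
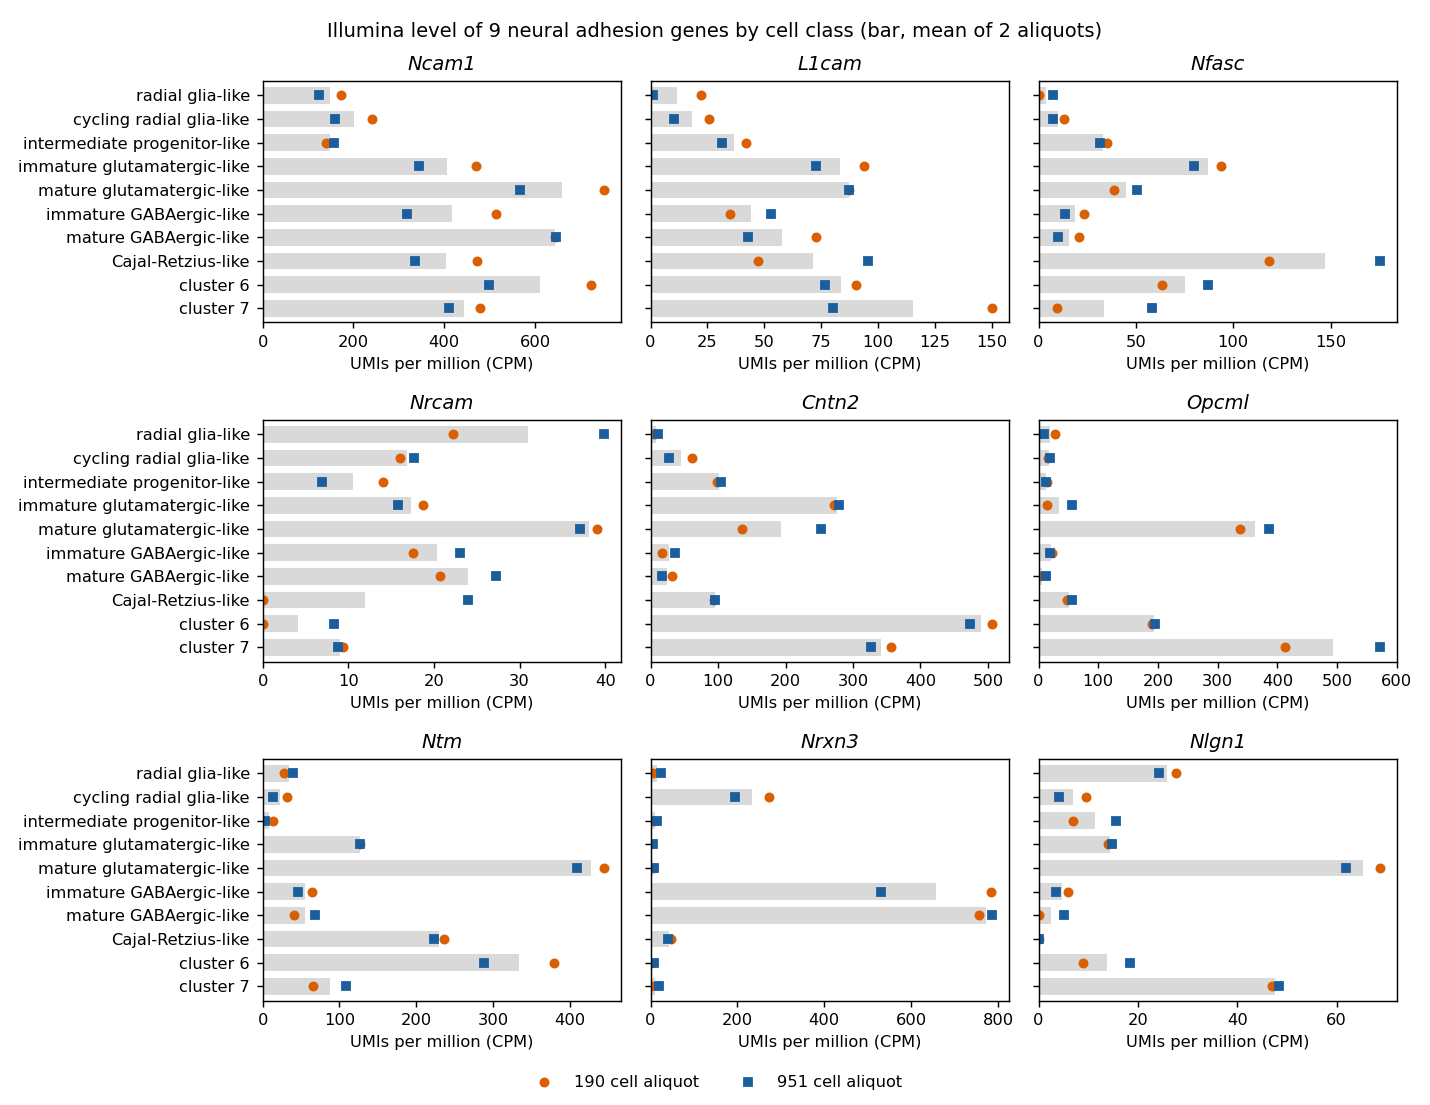
Illumina level in CPM (x axis) of each gene by cell class (y axis), with circles for the 190-cell aliquot, squares for the 951-cell aliquot and bars for their mean. Nrxn3 is high in GABAergic-like classes and cycling radial glia-like cells, Opcml, Ntm and Nlgn1 in mature glutamatergic-like cells, and Cntn2 in cluster 6 at 506 and 474.

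The genes whose class pattern was most like that of each gene were looked up over 18 points (9 classes in 2 aliquots, which share libraries) among 1525 genes. Nrxn3 was most like Gad2, an enzyme of GABA synthesis (Pearson r = 0.970), followed by Pfn2 (0.903), where Gad2 is also among the markers that named the mature GABAergic-like class. Cntn2 was most like Bhlhe22 (0.943), a transcription factor of projection neurons, and the axon guidance receptor Nrp1 (0.938), itself a marker of the immature glutamatergic-like class. L1cam was most like the neuronal protein Uchl1 (0.931), Ncam1 most like Fam220a (0.914), and Nfasc most like Mllt3 (0.894). The nearest genes of Ntm, Nlgn1, Opcml and Nrcam had lower values, with Macrod2 (0.886), Crip2 (0.884), Fkbp1a (0.867) and Tomm5 (0.833). Among the 9 genes themselves the pattern of Nfasc was most like that of Cntn2 (0.808) and that of Opcml most like that of Nlgn1 (0.782), whereas Nrxn3 ran opposite to Nlgn1 (-0.671) and Cntn2 (-0.651).

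The relatives of these genes were read from a list of 36 other neurexins, neuroligins, contactins, IgLON genes, ligands and partners, of which 21 passed the filter. In neuron-like classes 13 rose and 0 fell, where 18.6% and 19.6% of all genes did, with a median of 1.37 against -0.0035 over all genes. The largest rises were those of Clstn3, a postsynaptic calsyntenin (log2 3.11 ± 0.60, 5 UMIs in all progenitor-like classes), Ank3, the ankyrin of the axon initial segment that binds L1 family tails (2.37 ± 0.15), and the contactin-associated Cntnap5a (2.33 ± 0.83). Both tested polysialyltransferases of NCAM, both ankyrins and 3 of 4 other neurexins and neuroligins were among those that rose, while 0 of 3 other IgLON genes were. In mature against immature glutamatergic-like cells 3 rose and 3 fell, where 2.92% and 2.61% of all genes did. Named after their values were seen, the IgLON genes Negr1 (log2 -2.88 ± 0.35) and Lsamp (-1.17 ± 0.34) were among the 3 that fell, where Opcml and Ntm rose. In mature against immature GABAergic-like cells 3 rose and 0 fell, where 1.06% and 1.41% of all genes did, among the risers Nxph1, a neurexin ligand (5.04 ± 0.49), and the fourth L1 family gene Chl1 (2.81 ± 0.32). In mature GABAergic-like against mature glutamatergic-like cells 4 rose and 4 fell, where 3.46% and 5.04% of all genes did.

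The second question was which isoforms the long reads assigned to these genes. A Nanopore UMI is counted under the annotated isoform whose exon junctions its consensus read matched, so that an exon is counted through its isoform and not by itself. The 9 genes held 885 isoform UMIs, of which 440 belonged to Ncam1 and 190 to Nrxn3. Of the 885, 61.4% were on isoforms annotated as protein coding, against 96.3% of all isoform UMIs with a matched annotation. Of 7818 genes with at least 20 isoform UMIs, 5.69% had less than 50% on coding isoforms, and among the 8 adhesion genes with at least 20 they were Nrxn3, Opcml and Ntm.

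**Figure D3:**
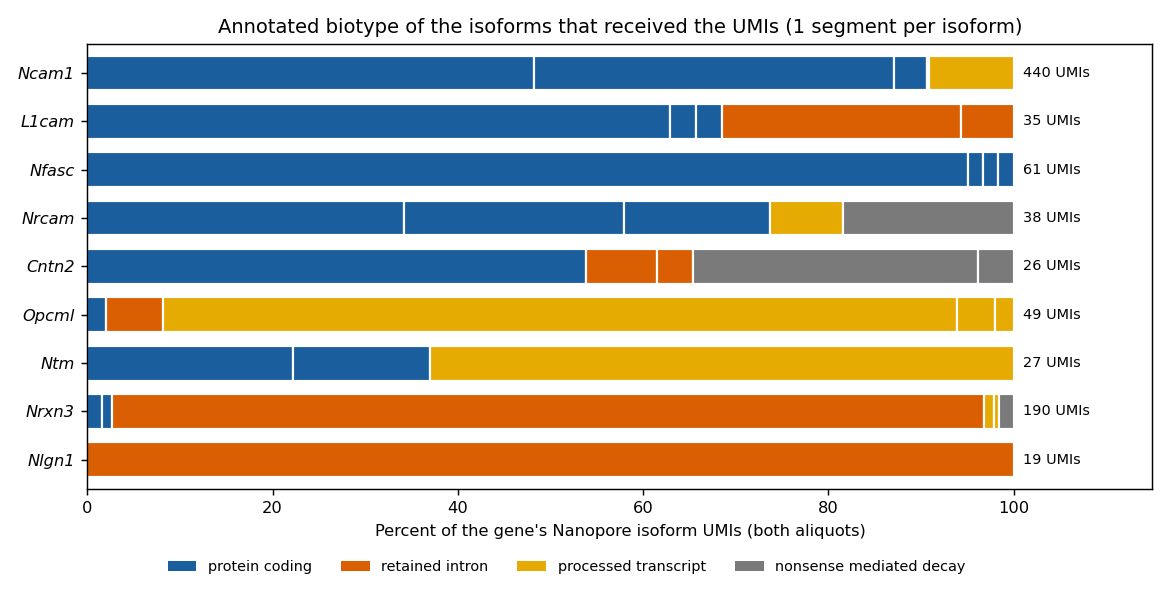
Percent of the Nanopore isoform UMIs of each gene (x axis) on isoforms of each annotated biotype, with 1 segment per isoform and the number of UMIs at the right. Nfasc and Ncam1 are mostly protein coding (100% and 90.9%), while Nrxn3, Opcml and Nlgn1 are at 2.63%, 2.04% and 0%.

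The genes above 900 kb were the ones read mostly as short transcripts from their 5′ part. Nrxn3-204, a retained intron transcript of 2278 nt with 4 exons, took 179 of the 190 Nrxn3 UMIs (94.2%, exact 95% interval 89.9 to 97.1). It starts 12 bases after the annotated gene start (chr12:88722888-88850849) and ends 1481561 bases before the nearest end of a coding isoform. The coding isoforms of Nrxn3 held 5 UMIs, all in the 951-cell aliquot (2.63%, 0.86 to 6.03). Those 5 were on isoforms with the 90-nt exon of splice site 4 shown above, and the only coding isoform that skips it had 0 UMIs. The reads that end upstream hold no information on this exon, so the few that reach it set no useful limit on skipping. By class Nrxn3-204 followed the Illumina level of the gene, with 81 UMIs in mature GABAergic-like, 69 in immature GABAergic-like, 19 in cycling radial glia-like and 3 in mature glutamatergic-like cells.

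Nlgn1, Opcml and Ntm showed the same layout. All 19 Nlgn1 UMIs (3 and 16 in the aliquots) were on Nlgn1-204 (chr3:26131670-26331870), a retained intron transcript of 3 exons that ends 698239 bases before the nearest coding end, so that 0 of the 19 UMIs were informative on the 60-nt exon of site A. Opcml-203, a processed transcript of 2 exons and 665 nt (chr9:27791302-28030026), took 42 of 49 UMIs (85.7%, 72.8 to 94.1) and ends 891052 bases before a coding end. Ntm-209, likewise of 2 exons with 852 nt (chr9:29941548-29963141), took 17 of 27 UMIs (63.0%, 42.4 to 80.6), and 10 UMIs (37.0%) were on the coding Ntm-203 and Ntm-211.

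Counted over isoforms that end more than 10 kb before any coding end, these transcripts made up 95.8% of the isoform UMIs of Nrxn3, 98.0% of Opcml, 100% of Nlgn1 and 63.0% of Ntm. In Ncam1 (297 kb) they were 9.09%, all of the 2-exon transcript Ncam1-207, and in Nrcam, Nfasc, L1cam and Cntn2 they were 0. The 10 kb minimum decides this for L1cam, where the retained intron transcript L1cam-205 with 9 of 35 UMIs ends 8708 bases before the nearest coding end. Gene span was set against the coding share over all genes with at least 20 isoform UMIs as well. Less than 50% were on coding isoforms in 4.73% of 6802 genes up to 100 kb and 9.39% of 703 up to 300 kb. The same held for 24.3% of 173 genes up to 900 kb and 40% of 20 longer genes. These 8 of 20 include Nrxn3, Opcml and Ntm, so the last step is not independent of the 9 genes. What makes these reads end there was not tested.

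Ncam1 was the gene with enough reads to follow its exons. Ncam1-205, the isoform with the 801-nt exon of NCAM-180, held 212 of 440 UMIs (48.2%, 43.4 to 53.0), with 45.0% in the 190-cell and 49.2% in the 951-cell aliquot. Ncam1-202, which ends without it, held 171 (38.9%, 34.3 to 43.6), the processed transcript Ncam1-207 held 40 and the coding Ncam1-204 held 16. Among the detected isoforms the 801-nt exon, the 30-nt VASE exon, the 15-nt exon and a 3-nt exon are annotated in Ncam1-205 alone, so they share its counts and cannot be told apart here. Ncam1-205 is also annotated without its 5′ end. Its share among the UMIs of Ncam1-202, Ncam1-204 and Ncam1-205 was 212 of 399 (53.1%, 48.1 to 58.1).

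By class this share was 1 of 4 and 9 of 32 UMIs in immature glutamatergic-like cells (25% and 28.1% in the aliquots), and 25 of 41 and 74 of 106 in mature ones (61.0% and 69.8%). Pooled, it was 27.8% (14.2 to 45.2) and 67.3% (59.1 to 74.8), so that the aliquots and the intervals did not overlap. In GABAergic-like cells it was 46.5% (31.2 to 62.3) of 43 UMIs in the immature and 59.3% (45.0 to 72.4) of 54 UMIs in the mature class. The progenitor-like classes together had 13 of 44 (29.5%, 16.8 to 45.2) and the neuron-like classes 161 of 280 (57.5%, 51.5 to 63.4). Cluster 6, highest in Cntn2, had 34.4% of 32 UMIs and cluster 7 had 60% of 35. These intervals cover counting error only.

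The test of isoform usage (edgeR diffSpliceDGE on the class sums, 621 genes) could be run on Ncam1 alone of the 9 genes, with Ncam1-202 and Ncam1-205. Mature against immature glutamatergic-like cells gave an adjusted p of 0.262 (unadjusted 0.0209), where 3.22% of all genes tested were called, and 0.00591 with the aliquot as a replicate block, where 6.6% were. Neuron-like against progenitor-like classes gave 0.189 (21.1% of genes called) and 0.0521 with the block (26.4%). The GABAergic-like classes (0.939) and the comparison of mature GABAergic-like with mature glutamatergic-like cells (0.927) were not called, with 1.13% and 2.25% of genes called.

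**Figure D4:**
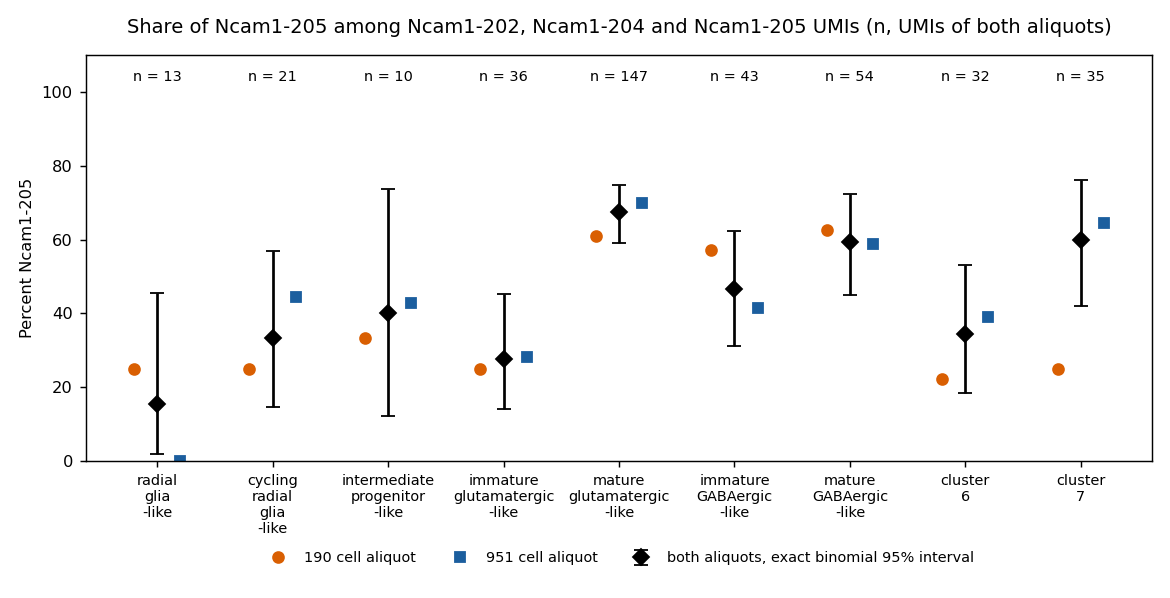
Percent of Ncam1-205 among the Nanopore UMIs of Ncam1-202, Ncam1-204 and Ncam1-205 (y axis) by class (x axis), with diamonds and exact binomial 95% intervals for both aliquots together and circles and squares for the 190-cell and 951-cell aliquots. Pooled shares were 27.8% in immature and 67.3% in mature glutamatergic-like cells, while classes with few UMIs have wide intervals. The edgeR diffSpliceDGE test did not call this difference (adjusted p = 0.262, and 0.00591 with the aliquot as a block).

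In L1cam, Nfasc, Nrcam and Cntn2 no UMI was on an isoform that ends more than 10 kb before a coding end. The share of UMIs on coding isoforms was 68.6% in L1cam, 73.7% in Nrcam and 53.8% in Cntn2, against 96.3% over all genes. All 61 Nfasc UMIs were on coding isoforms, and Nfasc-202 held 58 of them (95.1%, 86.3 to 99.0; 9 of 10 and 49 of 51 in the aliquots). Nfasc-202 contains the exons of 153, 117 and 237 nt that make up the mucin-like and last fibronectin part of neuronal neurofascin (NF186). It lacks the exons of 116 and 205 nt of the glial form (NF155), which 3 of 61 UMIs carried (4.92%, 1.03 to 13.7). Of these 3, 1 was on Nfasc-207, which also has the exons of 153, 117 and 237 nt. Nfasc-203 and Nfasc-205, with 1 UMI each, lack those. In L1cam the neuronal 12-nt exon was on 24 of 26 informative UMIs (92.3%, 74.9 to 99.1; 10 of 11 and 14 of 15), and the 15-nt exon on 32 of 33 (97.0%, 84.2 to 99.9). L1cam-202, which has both, held 22 of 35 UMIs, and the retained intron transcripts L1cam-205 and L1cam-209 held 9 and 2.

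Nrcam, at 38 UMIs, was the most mixed, and its values rest on the 951-cell aliquot (34 of the 38). The coding isoforms Nrcam-202, Nrcam-201 and Nrcam-214 held 13, 9 and 6 UMIs, and Nrcam-215, annotated for nonsense mediated decay, held 7. The 30-nt exon was on 16 of 29 informative UMIs (55.2%, 35.7 to 73.6), the 36-nt exon on 22 of 35 (62.9%, 44.9 to 78.5), and the 153-nt exon on 12 of 38 (31.6%, 17.5 to 48.7). The 18-nt exon was on 7 of 29 (24.1%, 10.3 to 43.5), all of Nrcam-215, which also carries the 62-nt and 12-nt exons (7 of 38 each), and a 126-nt exon was on 3 of 38. Cntn2 had 26 UMIs, 14 on the coding Cntn2-201 (53.8%, 33.4 to 73.4) and 8 on Cntn2-207, a transcript for nonsense mediated decay of 3 exons at the 3′ end of the gene.

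The third question was how many UMIs of each gene the long reads assigned to an annotated isoform. Nanopore UMIs that matched no isoform are not counted, so a low value does not mean that the molecules were not read. Per 100 Illumina UMIs the isoform tables held 58.2 UMIs over all genes. For the 9 genes they held far fewer: 15.4 and 14.9 in the aliquots for Nfasc, 10.5 and 17.99 for Nrcam, 12.7 and 10.8 for Ncam1, 10.7 and 13.3 for Nrxn3, 11.1 and 4.82 for L1cam, and 6.12 and 7.31 for Nlgn1. The lowest were Opcml (2.58 and 2.96), Cntn2 (1.57 and 1.52) and Ntm (1.28 and 1.79). All 9 were called lower in Nanopore isoform UMIs than in Illumina UMIs (edgeR, 9855 genes), where 30.3% of all genes were lower. Their median log2 difference was -2.89, against -0.037 over all genes, from -1.67 ± 0.27 for Nrcam to -5.00 ± 0.17 for Ntm and -5.02 ± 0.21 for Cntn2.

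Long transcripts were lower across the whole table. Of genes whose longest coding transcript had up to 2000 nt, 7.87% were called lower, rising to 19.5%, 49.5% and 65.8% in the next steps of 2000 nt and to 73.0% above 8000 nt, with medians of 0.54, 0.077, -0.83, -1.39 and -1.85. The adhesion genes with the exception of Ntm (3022 nt) have long ones, from L1cam (5126 nt) to Nfasc (9739 nt) and Nlgn1 (11807 nt). Each of the 9 was below the median of its length group, except Nfasc, which at -1.78 was above that of genes over 8000 nt. Only 2.14% and 2.15% of all genes had a lower value than Cntn2 and Ntm.

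**Figure D5:**
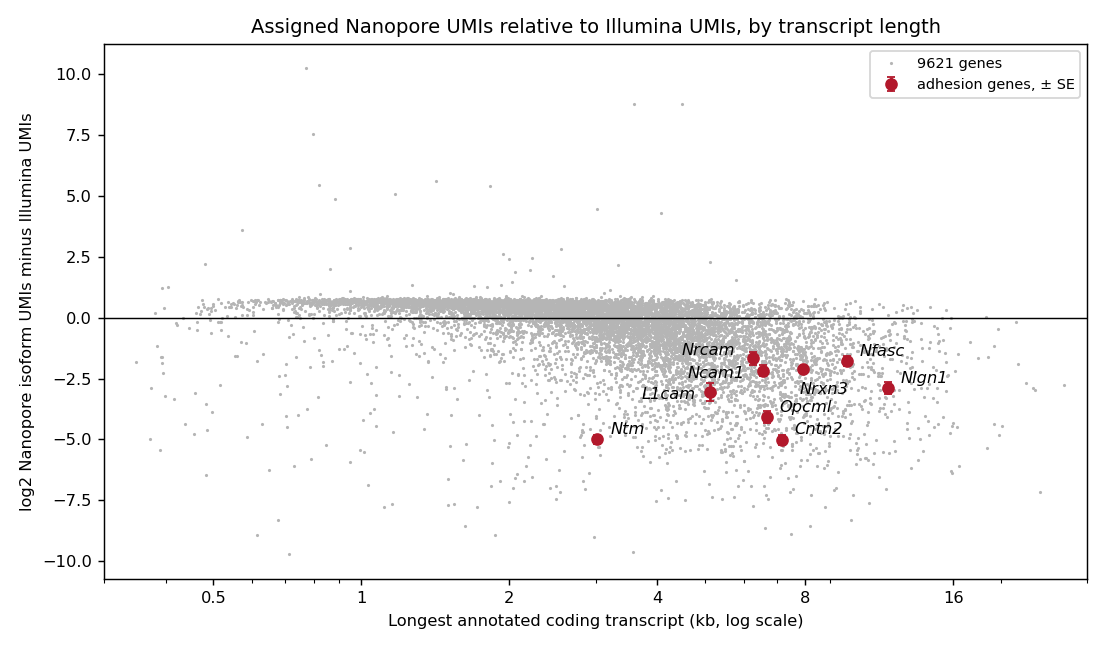
Log2 difference of Nanopore isoform UMIs from Illumina UMIs (y axis) against the length of the longest annotated coding transcript in kb (x axis, log scale), with grey points for 9621 genes and red points ± SE for the 9 adhesion genes. The cloud falls with length, and Cntn2 and Ntm lie lowest of the 9 at -5.02 and -5.00.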

How the data were processed

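The 4 libraries from 1 emulsion were an Illumina and a Nanopore library of each aliquot. The Illumina counts of UMIs per gene and cell were deposited by the authors as raw counts from Cell Ranger 2.0 (version per the submitters' processing notes) on mm10 (GRCm38). The Nanopore counts of UMIs per isoform and cell were likewise deposited as raw counts: per the study's methods the authors aligned reads with minimap2, found each read's barcode and UMI with help from the Illumina reads, built a consensus read per UMI and assigned it to a Gencode vM18 isoform with Sicelore when its junctions matched. Reads that matched no isoform are missing from the Nanopore counts, so a gene's count also depends on how well its reads matched the annotation. Isoform structures, lengths and exon sequences were read here from Gencode vM21 (GRCm38), in which every transcript ID of the 9 genes was found.

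Cells with at least 1400 detected genes were kept. They were integrated and clustered with Seurat 5.3.0 (2000 variable genes, 11 dimensions, resolution 0.8) without the 9 genes and their 36 relatives. Clusters were named from marker lists. A name needed 3 markers present in 10% of cells and raised by 0.5 on the log2 scale, a lead of 0.2 over the next class, and more markers among the top 10 genes than any other class. These naming limits were set after the clusters were seen. Cells with at least 3 markers of another cell type were set aside. Scrublet (scanpy 1.11.5) called 7 doublets, which were kept and left out in an alternative.

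UMI counts were summed per aliquot and class (at least 5 cells of a class per aliquot were needed, which leaves out the Cajal-Retzius-like class) and tested in R 4.3.3 with edgeR 4.0.16 (filterByExpr, TMM, quasi-likelihood F test; diffSpliceDGE for isoform usage), with Benjamini-Hochberg adjustment over all features tested and a threshold of 0.05. A leave-out fit assumes that the lone remaining sum varies like the others. The pairing of sums by aliquot comes from the design, since each aliquot is 1 library: deviations from class means correlated within an aliquot at a median r of 0.179 over 36 pairs of classes (0.109 to 0.306) for genes, 0.0703 (0.0303 to 0.123) for isoforms and 0.597 between platforms, and results with the aliquot as a block are given where they change a call. DESeq2 1.42.0 and limma 3.58.1 served as alternatives. Shares carry exact (Clopper-Pearson) 95% intervals, and a count of 0 was read against a limit of 3 counts. The count tests were tested on simulated data. The named genes were all 9; isoforms named in full held at least 5% of the gene's UMIs, and exons at least 5% on the smaller side of at least 20 informative UMIs. Other isoforms and exons were named after their values were seen. Likeness was Pearson's r of log2(CPM + 10) among genes with at least 1000 Illumina UMIs. The 9 genes and all lists were chosen with earlier results of these data known, and the comparison of maturation between the 2 neuron types was added after the data were seen.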

Additional observations from a re-analysis of the deposited data

Results flagged for a closer look

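Maturation difference is the name used here for mature minus immature class (log2 of Illumina sums), which cannot be told apart from neuron type. Glutamatergic and GABAergic maturation are short names for the same difference in these cells. This difference was not the same in glutamatergic-like and GABAergic-like cells for 2 of the 9 genes in edgeR's test of the difference itself. For Opcml it was larger in glutamatergic-like cells by 4.21 ± 0.67 (adjusted p = 0.000109), from 3.12 in these against -1.10 in GABAergic-like cells, where only 28 UMIs were counted in all. This held under every alternative that gave a value, although without the 951-cell aliquot, where 0 UMIs remained in mature GABAergic-like cells, the fitted difference was 10.9 (adjusted p = 0.00830). For Ntm it was larger by 1.63 ± 0.42 (adjusted p = 0.0163), from 1.83 against 0.20, and this call was lost with DESeq2 (adjusted p = 0.287) and without either aliquot (0.419 and 0.236). The causes were not tested.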

How the results depend on the processing

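Of the values for single genes and isoforms under all alternatives, 496 stayed the same, 19 changed sign, 8 gained and 13 lost a call. Another 24, all untested isoform shares, moved by at least the standard deviation between the aliquots. When an aliquot is left out, this limit comes from the same aliquot values, so the number does not measure how stable the shares are. Of the counts and main values, 79 stayed and 9 moved. DESeq2 called 2 of the 9 genes in mature against immature glutamatergic-like cells (Opcml and Ntm, where edgeR called 4) and 1 in the comparison of maturation between neuron types, and gave L1cam 0.098 in mature against immature GABAergic-like cells (main value -0.10, no call). With the aliquot as replicate block 1 gene (Ncam1) was called in mature against immature GABAergic-like cells and 1 in isoform usage of glutamatergic-like cells; the block changed no call other than those given in the report. Without replicate 1 or replicate 2 the genes called in mature against immature glutamatergic-like cells were 3 and 2, and in the comparison of maturation 1 and 1. Over protein-coding isoforms only, Ncam1-205 held 53% of Ncam1, and 45.0% to 49.2% without either replicate.

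Signs turned without a neuron-like replicate for Nrxn3 (-0.39 to 0.81) and Opcml (-0.14 to 1.70) in neuron-like against progenitor-like classes. They turned without a replicate of the classes compared for L1cam in glutamatergic maturation (-0.026 to 0.37), for Nrxn3 (-0.24 to 0.49), Nlgn1 (-4.64 to 0.46), L1cam (-0.40 to 0.86), Cntn2 (-1.14 to 0.63) and Ntm (-0.82 to 0.48) in GABAergic maturation, for Ncam1 in mature GABAergic-like against glutamatergic-like cells (-0.47 to 0.073), and for Ncam1 (-0.11 to 0.66), L1cam (-0.85 to 0.76) and Cntn2 (-1.52 to 1.09) in the comparison of maturation. Apart from Opcml none of these had a call. Alternatives chosen after the data were seen turned uncalled values too: counting the unnamed clusters as neuron-like gave Nrxn3 -0.14, Nlgn1 0.27 and Nrcam -0.066, and clustering on all genes gave Nlgn1 -0.087 and L1cam 0.090 in GABAergic maturation. Leaving out doublets gave Nlgn1 0.27 in neuron-like classes. Clustering on all genes named no immature glutamatergic-like class, so its 2 comparisons had no value there.

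Counts over all genes moved as well. From 3211 (neuron-like against progenitor-like), 466 (glutamatergic maturation), 208 (GABAergic maturation), 715 (mature GABAergic-like against glutamatergic-like) and 205 genes (comparison of maturation), DESeq2 called 2118, 138, 78, 297 and 76, the block 3855, 1118, 486, 1182 and 491, and the fit without replicate 2 called 1992, 74, 36, 188 and 29. Between platforms 4976 genes were called, against 3071 with DESeq2, and all 9 genes stayed lower in each alternative. In isoform usage 131, 20, 7 and 14 genes were called, against 164, 41, 10 and 18 with the block, 164, 0, 0 and 8 without a filter on low counts, 173, 6, 3 and 9 without replicate 1, and 56, 1, 0 and 0 without replicate 2. The causes were not tested. The low number of isoform UMIs of these genes (885 for the 9) left only Ncam1 for tests of isoform usage by class. All values come from 1 animal.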

Other observations

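The 4 and 13 Cajal-Retzius-like cells, which entered no test, held 47.3 and 39.9 CPM of Nrxn3, 94.6 and 95.7 CPM of Cntn2 and 47.3 and 55.8 CPM of Opcml in the 190-cell and 951-cell aliquots. Nlgn1 had 0 UMIs there in both aliquots, which allows up to 17.9 CPM (3 of the 167654 Illumina UMIs of the class), and Nrcam had 0 and 3 UMIs. Nrxn3 was low in the unnamed clusters, with 0 and 8.35 CPM in cluster 6 and 0 and 19.8 CPM in cluster 7. In cluster 7 the share of Ncam1-205 was 1 of 4 UMIs in the 190-cell and 20 of 31 in the 951-cell aliquot.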
